A study of Danio rerio with 4 samples.

Results

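Transcripts of 8 zebrafish CXC chemokine genes (cxcl8a, cxcl8b.1, cxcl8b.3, cxcl11.1, cxcl14, cxcl18b, cxcl19 and cxcl20) were followed through the cell classes of the study. The genes were taken by symbol from the 27758 features counted in each library, and each symbol matched 1 feature. RNA of single cells was measured in 4 libraries, 1 per group, so no difference between groups could be tested and intervals here (95%, exact) cover counting error only. The 4 groups were ALK5 inhibitor at 3 dpf, DMSO at 3 dpf, ALK5 inhibitor at 6 dpf and DMSO at 6 dpf, where dpf is days post-fertilization. Embryos had been bathed in 20 µM SB431542, a kinase inhibitor that blocks ALK5 and with it TGF-β signalling (ALK5i below), or in DMSO, the solvent, between 30 and 50 h post-fertilization, with 40 to 50 embryos in a well. Whole larvae were minced and digested with Liberase. Cells positive for a gata2b GFP reporter were sorted at 3 dpf, and cells positive for an mpeg1.1 mCherry reporter at 6 dpf. The stage and the sorted reporter changed together and cannot be told apart. How many larvae went into each library is not given in the sources used here.

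CXC chemokines are small secreted proteins, named for the spacing of their first cysteines, that steer migrating cells through receptors of the CXCR family. In zebrafish, Cxcl8 proteins and Cxcl18b draw neutrophils through Cxcr2 and related receptors, Cxcl11 proteins draw macrophages through Cxcr3 receptors, and Cxcl12 guides migrating and homing cells through Cxcr4. Tissue macrophages, epithelia and stromal cells are known sources, and several of these genes are switched on by NF-κB signalling after injury or infection.

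The deposited counts held 12121332 to 97212191 UMIs (unique molecular identifiers, each standing for 1 captured transcript) per library. After filtering, 25453 ALK5i and 30934 DMSO cells remained at 3 dpf, and 1179 ALK5i and 1980 DMSO cells at 6 dpf. Median UMIs per kept cell were 1738 in ALK5i and 2305 in DMSO cells at 3 dpf, and 6452 in ALK5i and 5681 in DMSO cells at 6 dpf. The 3 dpf libraries shared 248 cell barcodes and the 6 dpf libraries shared 3. Cell classes were rebuilt by clustering and named from marker lists, so class names here are not the authors' own. Macrophage-like cells, a class that takes in clusters with microglia markers, numbered 8642 in ALK5i and 8546 in DMSO at 3 dpf, and 322 in ALK5i and 481 in DMSO at 6 dpf. Of their defining genes, marco, a scavenger receptor gene, was at 796 CPM (UMIs of a gene per 1000000 UMIs of the class) in ALK5i and 768 CPM in DMSO at 3 dpf, and the neutrophil peroxidase gene mpx was at 1.94 CPM in ALK5i and 2.87 CPM in DMSO. The neutrophil and macrophage lysozyme gene lyz was at 35.8 CPM in ALK5i and 92.0 CPM in DMSO there, and its part in the results below was not tested. Although the cells were sorted on blood reporters, both stages also held mesenchyme-, epidermis- and neuron-like cells, which carried several of the chemokine genes.

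The genes fell into a macrophage group and a tissue group by where their UMIs lay. Macrophage-like cells held 80.6% of all cxcl8a UMIs in ALK5i and 73.1% in DMSO at 3 dpf. They held 77.0% of cxcl19 UMIs in ALK5i and 74.7% in DMSO, and 88.0% of cxcl11.1 UMIs in ALK5i and 80.3% in DMSO. Most of the remaining UMIs of these genes lay in blood-like clusters that were mixed or could not be named and were left out of the class. By contrast, cxcl18b UMIs lay chiefly in mesenchyme-like cells at 3 dpf, with 43.1% in ALK5i and 50.8% in DMSO. At 6 dpf cxcl18b UMIs lay chiefly in endothelial-like cells, with 46.3% in ALK5i and 41.7% in DMSO. Epidermis-like cells held the largest share of cxcl14 UMIs at both stages and of cxcl8b.1 UMIs at 6 dpf. These shares depend on how many cells of each class the sort let through, and fewer cells of a class and less RNA per cell cannot be told apart in them.

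**Figure D1:**
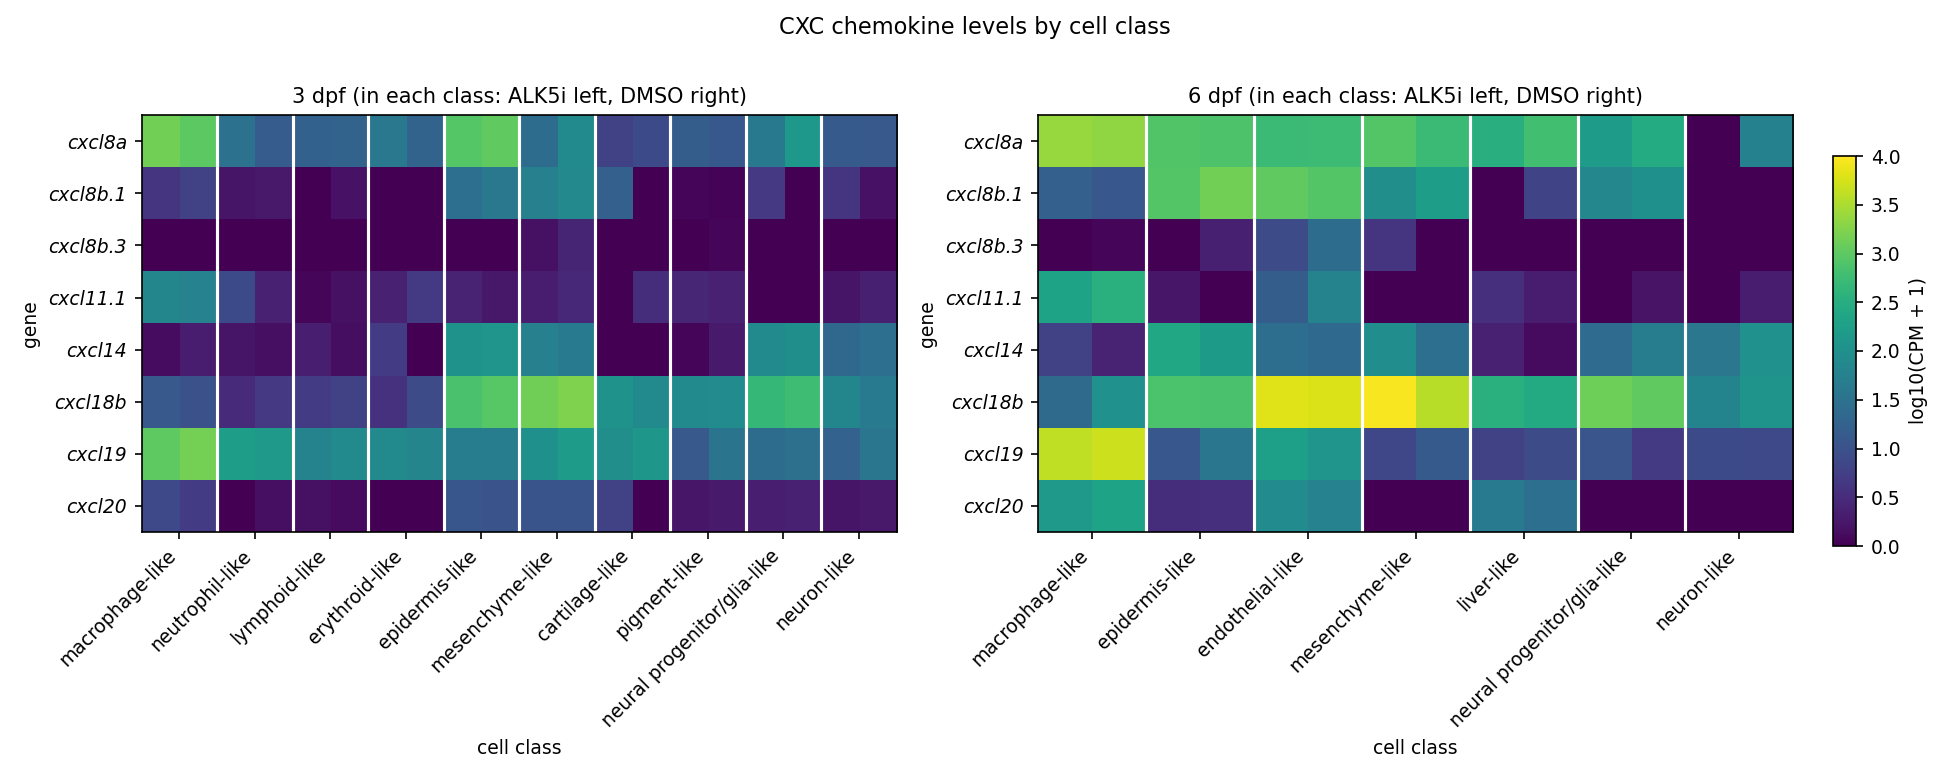
Colour gives log10(CPM + 1), for each gene (rows) in each named class with at least 50 cells in both libraries of a stage (columns; ALK5i left, DMSO right). Among these classes, at both stages cxcl11.1 and cxcl19 were highest in macrophage-like cells in both libraries, while cxcl18b was highest in mesenchyme- or endothelial-like cells.

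Levels per class are given below as CPM, and a level is compared only between classes or libraries for 1 gene at a time. Differences are log2 ratios of CPM + 5, ALK5i over DMSO. A ratio of at least 0.5 in size is described as past the fold, which is a rule of size and not a test.

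In macrophage-like cells at 3 dpf, cxcl8a and cxcl19 lay on opposite sides. The interleukin-8 gene cxcl8a stood at 1401 CPM in ALK5i and 985 CPM in DMSO, a log2 ratio of 0.51 (interval 0.48 to 0.53). The level of cxcl19 was 1008 CPM in ALK5i and 1482 CPM in DMSO, a log2 ratio of -0.55 (interval -0.58 to -0.53). Of the 7 members with at least 20 UMIs in the class, cxcl8a was the only one past the fold on the higher side and cxcl19 the only one on the lower side. Among all 15409 genes tested there, 0.85% were past the fold higher and 1.15% lower. Both ratios lie close to the fold that defines a call. When the 2 libraries were given the same mix of clusters, cxcl8a had a log2 ratio of 0.47 and cxcl19 of -0.47, so that neither was past the fold.

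The other members differed less in these cells. The Cxcr3 ligand gene cxcl11.1 was at 67.0 CPM in ALK5i and 57.9 CPM in DMSO (log2 ratio 0.19, interval 0.09 to 0.30). The gene cxcl20 was at 6.58 CPM in ALK5i and 4.09 CPM in DMSO (log2 ratio 0.35, interval 0.14 to 0.55). Both stayed inside the fold. The neutrophil attractant gene cxcl18b was at 11.9 CPM in ALK5i and 8.90 CPM in DMSO (log2 ratio 0.28, interval 0.09 to 0.47). Without the 10 richest cells of each library its ratio was -0.08, so the direction for cxcl18b rests on few cells. A second interleukin-8 gene, cxcl8b.1, was at 3.00 CPM in ALK5i and 5.19 CPM in DMSO (log2 ratio -0.35, interval -0.54 to -0.14). The gene cxcl14 was represented by 6 UMIs in ALK5i and 25 in DMSO, and cxcl8b.3 by 0 in each. These low counts put cxcl14 and cxcl8b.3 at the edge of what the depth can show.

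The opposite ratios of cxcl8a and cxcl19 were also seen within most macrophage-like clusters at 3 dpf. The clusters are parts of the same libraries, so their agreement is a description and not a repeat of the comparison. In the 8 clusters with at least 20 cells per library and 20 UMIs of the gene, cxcl8a had a positive ratio in 8, between 0.30 and 1.08, and the interval lay above 0 in 8. For cxcl19 the ratio was negative in 7 of 8, between -1.01 and 0.05, and the interval lay below 0 in 6. The exception for cxcl19 was a cluster led by spsb3a, with 420 CPM in ALK5i and 404 CPM in DMSO. A small cluster led by the apolipoprotein gene apoc1 was under the UMI limit for cxcl8a, with 0 UMIs in 56 ALK5i cells and 3 UMIs in 91 DMSO cells. A mixed cluster outside the class, which also carried markers of other cells, gave cxcl8a 1307 CPM in ALK5i and 1022 CPM in DMSO, and cxcl19 1078 CPM in ALK5i and 1537 CPM in DMSO. Here too cxcl8a was higher and cxcl19 lower in ALK5i. A group of 191 ALK5i and 244 DMSO cells led by tppp, which could not be named, went the other way for cxcl19, at 2144 CPM in ALK5i and 1639 CPM in DMSO.

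Between clusters the genes had different patterns. In the cluster led by apoeb, another apolipoprotein gene, cxcl8a reached 1088 CPM in ALK5i and 659 CPM in DMSO, whereas cxcl19 was only at 203 CPM in ALK5i and 413 CPM in DMSO. In the cluster led by the chemokine gene ccl34a.4, cxcl8a was at 1815 CPM in ALK5i and 1470 CPM in DMSO, the highest level of this gene among the 8 clusters. That cluster held 49.1% of the cxcl8a UMIs of macrophage-like cells in ALK5i and 45.1% in DMSO. Its share of the cells was 32.6% in ALK5i and 25.0% in DMSO. The cxcl19 level was highest in a cluster led by tppp, at 2422 CPM in ALK5i and 3168 CPM in DMSO. The chemokine genes themselves were kept out of the clustering, but genes that vary with them were not, so the differences between clusters are a description.

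**Figure D2:**
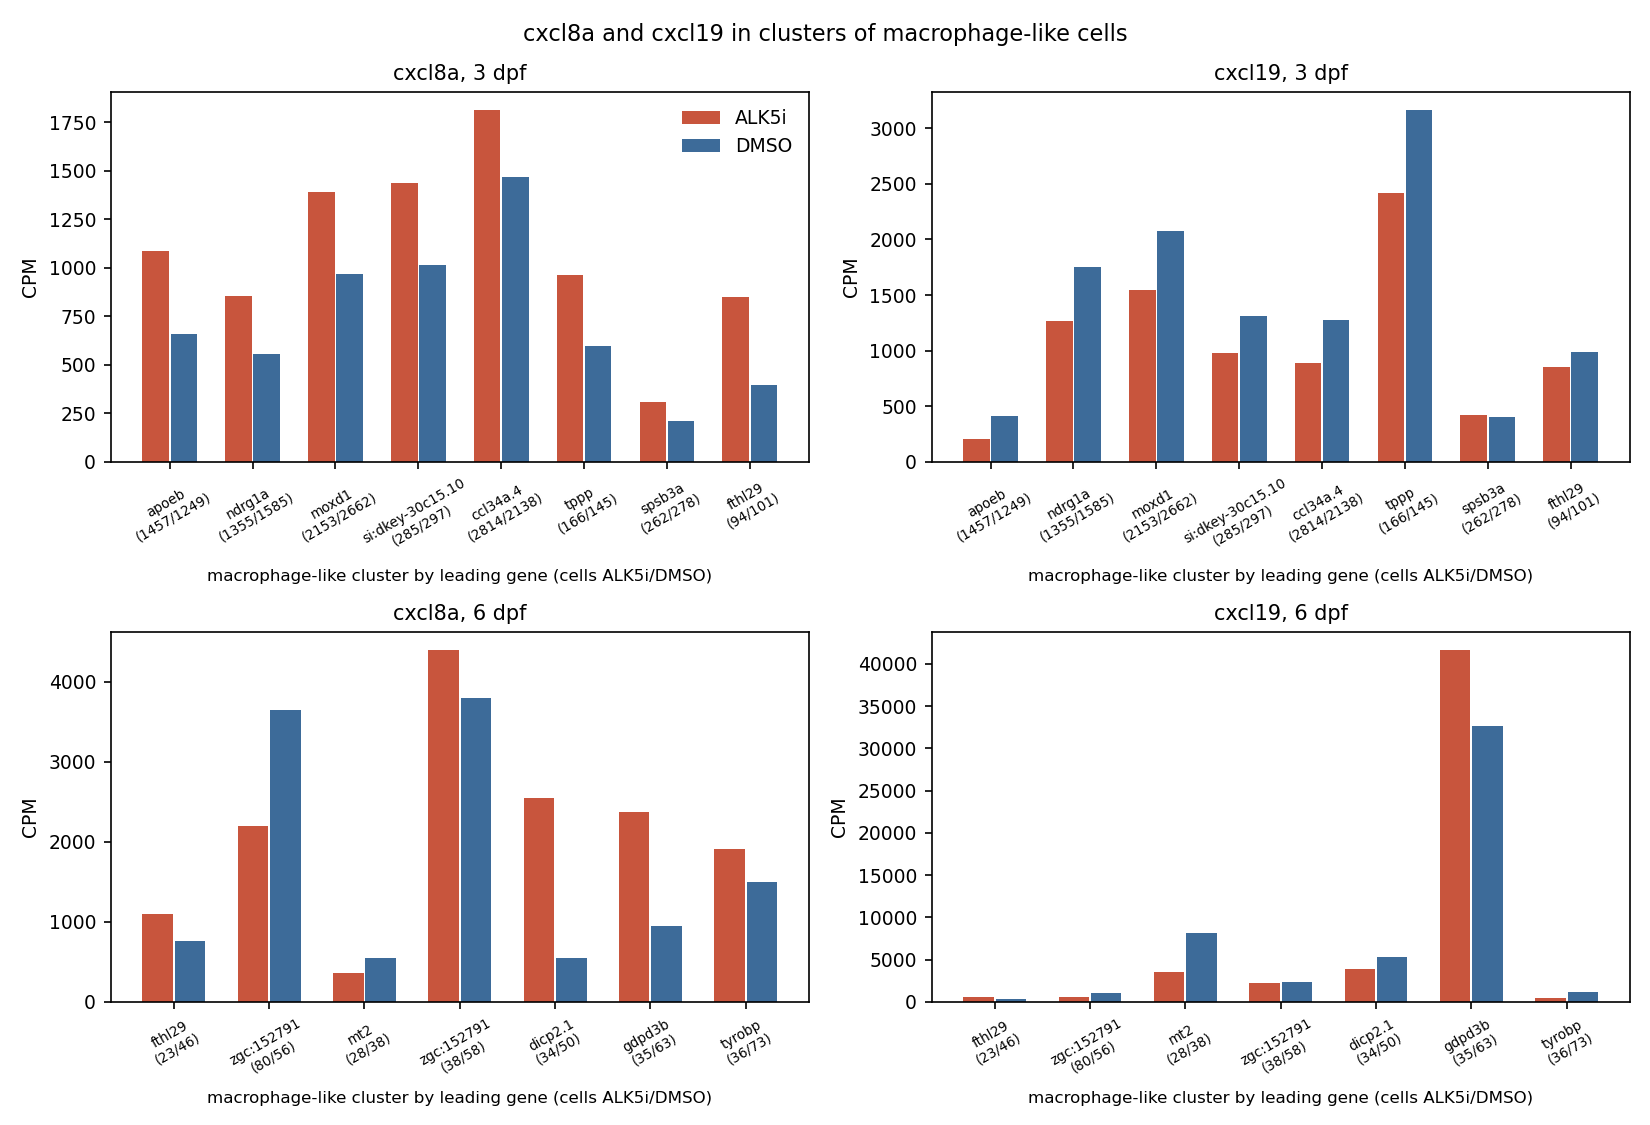
Bars give CPM of cxcl8a (left) and cxcl19 (right) in macrophage-like clusters with at least 20 cells in both libraries and 20 UMIs of the gene, at 3 dpf (top) and 6 dpf (bottom), ALK5i left of DMSO in each pair. At 3 dpf the ALK5i bar is higher for cxcl8a in 8 of 8 clusters and lower for cxcl19 in 7 of 8, while at 6 dpf 1 cluster, led by gdpd3b, stands far above the rest for cxcl19.

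The share of macrophage-like cells with a transcript differed in the same directions at equal depth. Each cell was thinned to 1000 UMIs, and cells with fewer were left out, which at 3 dpf were 812 of the 8642 ALK5i and 347 of the 8546 DMSO macrophage-like cells. After thinning, cxcl8a was found in 46.0% of 7830 ALK5i cells and 38.5% of 8199 DMSO cells at 3 dpf. A cxcl19 UMI was found in 37.8% of ALK5i cells and 50.0% of DMSO cells. Without thinning, the shares were 54.1% in ALK5i and 53.2% in DMSO for cxcl8a, and 46.2% in ALK5i and 63.8% in DMSO for cxcl19. Median UMIs of macrophage-like cells were 1822.5 in ALK5i and 2565 in DMSO, so the unthinned cxcl8a shares compare cells of unequal depth. Neuron-like cells were taken as the background for detection. After thinning they showed cxcl8a in 1.02% of ALK5i and 1.29% of DMSO cells, and cxcl19 in 1.96% of ALK5i and 2.67% of DMSO cells. Before thinning, the 10 richest neuron-like cells held 45.2% of their cxcl8a UMIs in ALK5i and 26.5% in DMSO. For cxcl19 they held 32.7% in ALK5i and 36.8% in DMSO. Whether neuron-like cells carry either gene themselves was not tested. Their median depth was 1627 UMIs in ALK5i and 2223.5 in DMSO. Detection in macrophage-like cells was far above this background.

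Genes of the same pathways gave the setting of these ratios in macrophage-like cells at 3 dpf. Over all 15409 genes tested there, 0.85% were past the fold higher and 1.15% lower. A count of 0 in a short list below is near those shares. The lists were chosen with earlier results of these data known, so their counts and medians are descriptions. A list of inflammatory genes held cytokine genes and others, such as saa, mmp9 and ptgs2b. The median log2 ratio of its 18 genes tested was 0.38, against -0.04 over all genes. Of these 18 genes, 6 were past the fold higher, saa among them (log2 ratio 0.90), and 0 lower. Examples were il12a, an interleukin-12 subunit gene, at 23.0 CPM in ALK5i and 7.42 CPM in DMSO, and il6, a cytokine of the acute response, at 36.4 CPM in ALK5i and 19.4 CPM in DMSO. Of 24 genes for NF-κB and AP-1 factors and their feedback inhibitors, 0 were past the fold in either direction. At the high end of that list junba, an AP-1 subunit gene, had a log2 ratio of 0.44, and nfkbie, an NF-κB inhibitor gene, of 0.38. At its low end ikbkb had a log2 ratio of -0.23 and nfkbiz of -0.12, and the list median was 0.06. Of 22 interferon-response genes, 0 were past the fold. Among TGF-β response genes, id2b was at 8.05 CPM in ALK5i and 2.02 CPM in DMSO (log2 ratio 0.89), and id1, a target of BMP and TGF-β signals, was at 211 CPM in ALK5i and 310 CPM in DMSO (log2 ratio -0.54). A list of 44 genes known to be induced by tissue dissociation had a summed level of 12917 CPM in ALK5i and 11228 CPM in DMSO, with 5 genes past the fold higher and 1 lower. Among cells at or below the median share of that list, the cxcl8a ratio was 0.45 and the cxcl19 ratio -0.54.

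Receptor genes for these ligands were also measured in macrophage-like cells at 3 dpf. Of 6 CXC and atypical receptor genes tested in macrophage-like cells, 0 were past the fold, near the shares of 0.85% higher and 1.15% lower over all genes. The Cxcr3 receptor gene cxcr3.3 was at 200 CPM in ALK5i and 247 CPM in DMSO, and cxcr3.2 was at 147 CPM in ALK5i and 158 CPM in DMSO. Transcripts of cxcr1, an interleukin-8 receptor gene, were at 59.6 CPM in ALK5i and 57.9 CPM in DMSO. The Cxcl12 receptor gene cxcr4b was at 150 CPM in ALK5i and 182 CPM in DMSO in macrophage-like cells, and at 434 CPM in ALK5i and 397 CPM in DMSO in neutrophil-like cells. The 4 other CXC ligand genes with at least 20 UMIs in macrophage-like cells (cxcl11.6, cxcl12a, cxcl12b and cxcl18a.1) were each under 3 CPM in both libraries.

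In the 437 ALK5i and 514 DMSO neutrophil-like cells at 3 dpf, 2 members reached 20 UMIs. For cxcl8a the counts were 46 UMIs (31.4 CPM) in ALK5i and 31 UMIs (13.8 CPM) in DMSO, a log2 ratio of 0.96 (interval 0.41 to 1.49). This was the 1 member past the fold, where 4.19% of 8933 genes were past it higher and 6.07% lower. After thinning, 1.63% of ALK5i and 0.988% of DMSO neutrophil-like cells held cxcl8a, with intervals that overlap those of the neuron-like shares in both libraries. The 10 richest cells held 80.4% of these UMIs in ALK5i and 71.0% in DMSO. Median depth was 3265 UMIs in ALK5i and 4190.5 in DMSO neutrophil-like cells. The level of cxcl19 was 170 CPM in ALK5i and 147 CPM in DMSO (log2 ratio 0.21, interval -0.03 to 0.44), in 12.8% of ALK5i and 9.88% of DMSO cells after thinning, above the neuron-like share. At 6 dpf only 17 ALK5i and 14 DMSO cells were neutrophil-like, under the minimum of 50 for a ratio.

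At 6 dpf a different set of members was past the fold in macrophage-like cells. The level of cxcl11.1 was 211 CPM in ALK5i and 350 CPM in DMSO (log2 ratio -0.72, interval -0.84 to -0.59). For cxcl20 it was 142 CPM in ALK5i and 209 CPM in DMSO (log2 ratio -0.54, interval -0.69 to -0.38). Both were lower in ALK5i here, although their 3 dpf ratios were positive. After thinning, 8.81% of ALK5i and 10.4% of DMSO cells held cxcl11.1, and 8.18% of ALK5i and 12.8% of DMSO cells held cxcl20, with overlapping intervals. Also past the fold lower was cxcl18b, at 23.1 CPM in ALK5i and 104 CPM in DMSO (log2 ratio -1.95). Only 17 ALK5i and 29 DMSO cells held a cxcl18b UMI, and 1 DMSO cell alone held 236 of the 557 UMIs. Without the 10 cells richest in cxcl18b in each library, the class was at 2.23 CPM in ALK5i and 7.54 CPM in DMSO. For cxcl11.1 the 10 richest cells held 60.4% of the UMIs in ALK5i and 56.3% in DMSO, and without them the log2 ratio was -0.82. Its ratios within clusters lay between -1.72 and 4.84. Clusters did not go one way for cxcl11.1: of 6 with at least 20 cells per library, 4 had a negative and 2 a positive ratio. Nor did they for cxcl20: of 7 such clusters, 4 had a negative and 3 a positive ratio, between -1.20 and 0.67. The cxcl20 interval lay below 0 in 2 of the 7. The unnamed cluster led by tppp had cxcl11.1 at 160 CPM in ALK5i and 38.9 CPM in DMSO, with 75 of the 118 ALK5i UMIs in 1 cell. The gene cxcl14 had 16 UMIs in ALK5i and 8 in DMSO and a log2 ratio of 0.61, from 8 ALK5i and 4 DMSO cells. In all, 3 of the 7 members with 20 UMIs were past the fold lower and 1 higher, where 3.89% of 8994 genes were past it lower and 5.06% higher.

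**Figure D3:**
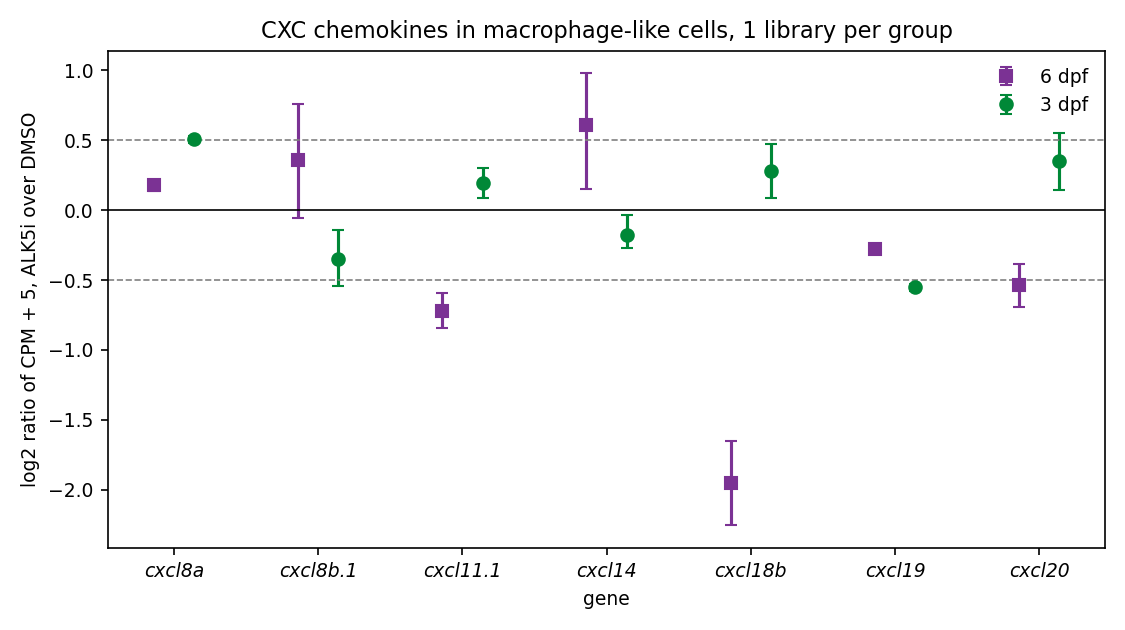
Points give the log2 ratio of CPM + 5, ALK5i over DMSO, in macrophage-like cells at 6 dpf (squares) and 3 dpf (circles), and bars give 95% counting intervals, which are narrower than the symbols for cxcl8a and cxcl19. The ratios of cxcl11.1, cxcl18b and cxcl20 were positive at 3 dpf (for cxcl18b, negative without the 10 richest cells) and negative at 6 dpf, and dashed lines mark the fold of 0.5.

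In the class sums at 6 dpf, cxcl8a was again higher and cxcl19 again lower in ALK5i. The level of cxcl8a was 2438 CPM in ALK5i and 2154 CPM in DMSO (log2 ratio 0.18, interval 0.14 to 0.22). Transcripts of cxcl19 were at 4113 CPM in ALK5i and 4983 CPM in DMSO (log2 ratio -0.28, interval -0.31 to -0.25). After thinning, cxcl8a was found in 45.3% of 318 ALK5i and 38.4% of 461 DMSO cells, and cxcl19 in 40.6% of ALK5i and 49.7% of DMSO cells. For each gene the intervals of the ALK5i and DMSO shares overlap. Without thinning they were 66.8% in ALK5i and 65.7% in DMSO for cxcl8a, and 54.7% in ALK5i and 64.9% in DMSO for cxcl19, at median depths of 9235 UMIs in ALK5i and 11224 in DMSO. No cxcl8a UMI was found in 68 ALK5i or 167 DMSO thinned neuron-like cells, a count of 0 that allows up to 4.41% of ALK5i and 1.80% of DMSO cells with a UMI at that depth (3 counts over the cells). Without thinning, 0 of 83 ALK5i and 4 of 183 DMSO neuron-like cells held one. The macrophage-like shares after thinning are close to those at 3 dpf in each treatment. Within clusters the agreement was poorer than at 3 dpf. In 7 clusters, cxcl8a ratios were positive in 5 and negative in 2, between -0.73 and 2.19. For cxcl19 they were negative in 5 and positive in 2, between -1.23 and 0.61. With the clusters weighted alike in both libraries the cxcl19 ratio was 0.08, on the other side of 0. Without the 10 richest cells of each library cxcl19 was at 2686 CPM in ALK5i and 4029 CPM in DMSO, a log2 ratio of -0.58, so the size of its ratio at 6 dpf depends on few cells and on the mix of clusters. The dissociation list stood at 17966 CPM in ALK5i and 12384 CPM in DMSO in these cells. Of its genes 15 of 39 were past the fold higher, where 5.06% of all 8994 genes were. The 15 alternative settings at 6 dpf included cells at or below the median share of this list. Over those settings the cxcl8a ratio ran from 0.16 to 0.27 and the cxcl19 ratio from -0.58 to 0.08. The part of this list as a cause of these ratios was not tested.

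Most cxcl19 transcripts of macrophage-like cells at 6 dpf came from few cells. A cluster led by gdpd3b, with 35 ALK5i and 63 DMSO cells, had cxcl19 at 41653 CPM in ALK5i and 32672 CPM in DMSO. It was 10.9% of macrophage-like cells in ALK5i and 13.1% in DMSO, yet it held 67.8% of their cxcl19 UMIs in ALK5i and 60.0% in DMSO. The richest single cells carried 881 cxcl19 UMIs in ALK5i and 691 in DMSO. In this cluster cxcl8a was at 2374 CPM in ALK5i and 948 CPM in DMSO. The next cxcl19 level among clusters of at least 20 cells per library was in a cluster led by mt2, a metallothionein gene, in DMSO (3595 CPM in ALK5i and 8114 CPM in DMSO). An unnamed cluster led by tppp, with macrophage markers but outside the class, had cxcl19 at 3677 CPM in ALK5i and 5283 CPM in DMSO, and cxcl8a at 1362 CPM in ALK5i and 683 CPM in DMSO.

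Among receptors at 6 dpf, cxcr1 was at 111 CPM in ALK5i and 174 CPM in DMSO in macrophage-like cells (log2 ratio -0.63). By contrast cxcr4b was at 384 CPM in ALK5i and 258 CPM in DMSO (log2 ratio 0.56). These were the only 2 of 5 receptor genes tested that were past the fold, where 5.06% of all 8994 genes were past it higher and 3.89% lower.

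Whether the same macrophage-like cell carried several of the chemokine transcripts was read at equal depth. Detection of cxcl19 differed little between cells with and without cxcl8a. A cxcl19 UMI was found in 38.4% of ALK5i cells with cxcl8a and 37.3% of ALK5i cells without it at 3 dpf. In DMSO it was found in 51.6% of cells with cxcl8a and 49.0% of cells without it. Both intervals overlap. Detection of cxcl11.1 went with that of cxcl8a. At 3 dpf it was found in 3.81% of ALK5i cells with cxcl8a and 1.37% of those without, and in 3.17% of DMSO cells with cxcl8a and 1.39% of those without. At 6 dpf the shares were 15.3% with and 3.45% without cxcl8a in ALK5i, and 18.1% with and 5.63% without it in DMSO. The 2 shares differed beyond their counting intervals in each of the 4 libraries. Cells of 1 library share its processing, so these are descriptions. At 6 dpf cxcl11.1 was found in 7.75% of ALK5i cells with cxcl19 and 9.52% of those without it, and in 6.55% of DMSO cells with cxcl19 and 14.2% of those without it, with overlapping intervals in both libraries. At 3 dpf cxcl11.1 was found in 3.31% of ALK5i cells with cxcl19 and 1.99% of those without it, where the intervals do not overlap. In DMSO it was found in 2.41% with and 1.73% without cxcl19, where they do. A cxcl20 UMI was found at 6 dpf in 10.4% of ALK5i cells with cxcl8a and 6.32% of those without it, where the intervals overlap. In DMSO it was found in 19.2% with and 8.80% without cxcl8a, where they do not.

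**Figure D4:**
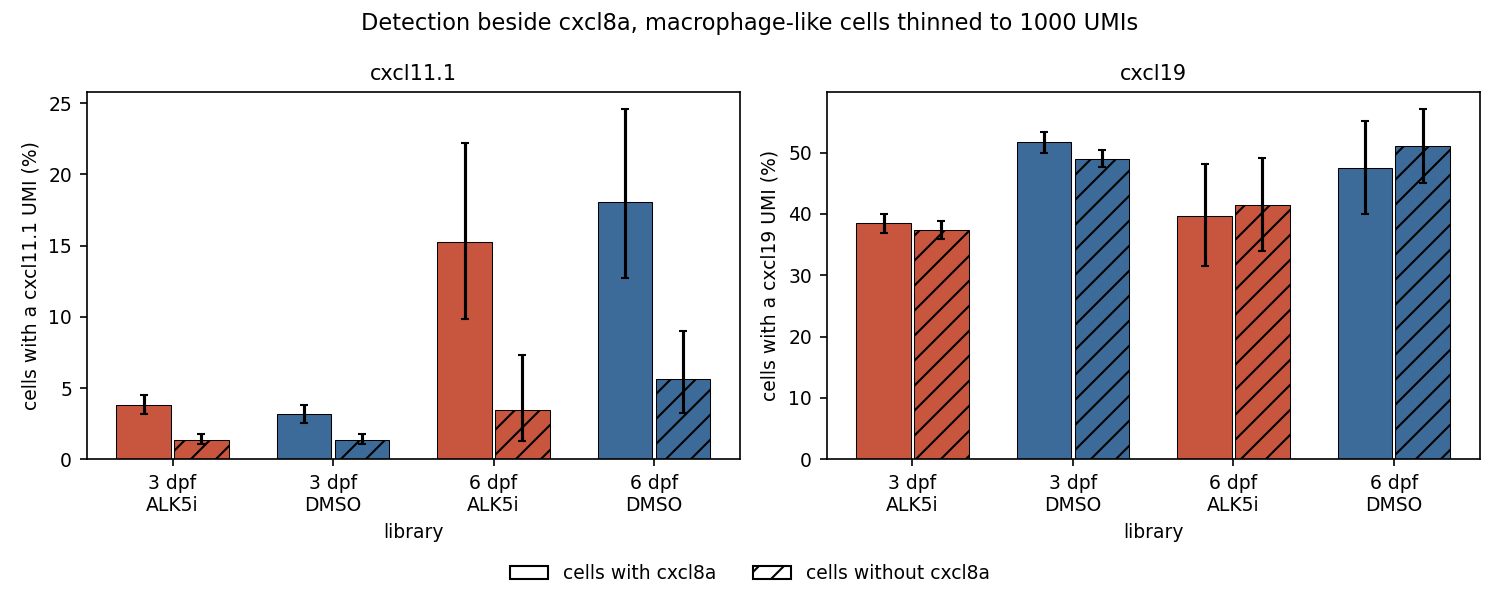
Bars give the percentage of macrophage-like cells, thinned to 1000 UMIs, with a UMI of cxcl11.1 (left) or cxcl19 (right) among cells with cxcl8a (plain) and without it (hatched) in each library, with exact 95% binomial intervals. The plain bar is 2.28 to 4.43 times the hatched one for cxcl11.1 and 0.93 to 1.05 times for cxcl19.

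Outside blood cells, epidermis-like cells were the other main site of cxcl8a. At 3 dpf it was at 889 CPM in ALK5i and 1050 CPM in DMSO in these cells (log2 ratio -0.24, interval -0.32 to -0.15), the opposite side from macrophage-like cells. In DMSO cxcl8a was thus higher here than in macrophage-like cells, which had 985 CPM of it. After thinning, 27.6% of ALK5i and 33.0% of DMSO epidermis-like cells held it. None of the 6 members with 20 UMIs was past the fold in epidermis-like cells at 3 dpf, where 8.64% of genes were past it higher and 5.35% lower. At 6 dpf cxcl8a was at 818 CPM in ALK5i and 776 CPM in DMSO. Mesenchyme-like cells at 3 dpf had it at 25.3 CPM in ALK5i and 76.9 CPM in DMSO (log2 ratio -1.43), in 1.57% of ALK5i and 3.09% of DMSO cells after thinning, which left out 478 of 1179 ALK5i and 346 of 1448 DMSO cells. The 10 richest cells held 39.6% of these cxcl8a UMIs in ALK5i and 50.2% in DMSO, and without them the log2 ratio was -1.09. In that class 0 of 6 members were past the fold higher and 2 lower (cxcl8a and cxcl19), where 4.13% of genes were higher and 8.35% lower. In neural progenitor- and glia-like cells at 3 dpf, with 41.0 CPM in ALK5i and 135 CPM in DMSO, 1 DMSO cell held 85 of the 99 cxcl8a UMIs and 1 ALK5i cell 22 of the 34. There 0 of 4 members were past the fold higher and 1 lower, where 9.85% of genes were higher and 12.3% lower. At 6 dpf the same class had 0 of 4 members higher and 2 lower (cxcl8a and cxcl14), where 7.29% of genes were higher and 24.3% lower. Only 5 ALK5i and 12 DMSO cells held a cxcl8a UMI there, and 5 ALK5i and 21 DMSO cells a cxcl14 UMI. The 10 richest cells held 100% of the cxcl8a UMIs in ALK5i and 99.4% in DMSO, so both calls rest on few cells.

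The remaining classes at 3 dpf held cxcl19 at far lower levels than macrophage-like cells. Pigment-like cells gave 126 cxcl19 UMIs in 7092 ALK5i and 699 UMIs in 10976 DMSO cells (log2 ratio of the CPM levels -1.18). Neuron-like cells had it at 16.9 CPM in ALK5i and 36.3 CPM in DMSO (log2 ratio -0.91). Both ratios were larger in size than that of macrophage-like cells, but they compare far lower levels. Neuron-like cells served above as the background for cxcl19 detection, and the pigment-like cxcl19 level was below the neuron-like level in each library. Whether pigment- or neuron-like cells carry cxcl19 transcripts of their own was not tested. Lymphoid-like cells had cxcl19 at 60.2 CPM in ALK5i and 77.7 CPM in DMSO, cartilage-like cells at 94.2 CPM in ALK5i and 128 CPM in DMSO, and erythroid-like cells at 77.2 CPM in ALK5i and 64.0 CPM in DMSO. For cxcl8a, pigment-like cells gave 146 UMIs in ALK5i and 241 in DMSO (log2 ratio of the CPM levels 0.19), and erythroid-like cells had 39.3 CPM in ALK5i and 18.1 CPM in DMSO, the second from 29 ALK5i and 33 DMSO UMIs.

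The tissue members centred on stromal and epithelial cells. The neutrophil attractant gene cxcl18b was at 1372 CPM in ALK5i and 1699 CPM in DMSO in mesenchyme-like cells at 3 dpf (log2 ratio -0.31, interval -0.38 to -0.24). It was at 720 CPM in ALK5i and 916 CPM in DMSO in epidermis-like cells (log2 ratio -0.35, interval -0.44 to -0.25). Both were slightly lower in ALK5i and inside the fold. At 6 dpf endothelial-like cells had cxcl18b at 6453 CPM in ALK5i and 6055 CPM in DMSO, and mesenchyme-like cells at 9000 CPM in ALK5i and 3664 CPM in DMSO. A single ALK5i cell held 1601 of the 2948 mesenchyme UMIs. Without the 10 richest cells of each library the mesenchyme level was 1657 CPM in ALK5i and 1830 CPM in DMSO, with the direction turned round. In endothelial-like cells the 10 richest cells held 88.5% of the cxcl18b UMIs in ALK5i and 84.9% in DMSO. Of 4 members with 20 UMIs in mesenchyme-like cells at 6 dpf, 3 were past the fold higher (cxcl8a, cxcl14 and cxcl18b) and 1 lower (cxcl8b.1), where 16.2% of genes were higher and 20.4% lower. Without the 10 richest cells of each library the 3 were on the other side of 0, with log2 ratios of -2.92 for cxcl8a, -0.59 for cxcl14 and -0.14 for cxcl18b. Of 8 in endothelial-like cells, 1 was higher (cxcl19) and 2 lower (cxcl8b.3 and cxcl11.1), where 12.5% of genes were higher and 19.2% lower. With 73 ALK5i and 115 DMSO endothelial-like cells, these counts rest on few cells.

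The gene cxcl8b.1 was scarce at 3 dpf and plentiful at 6 dpf. Among the named classes at 3 dpf it was highest in mesenchyme-like cells in both libraries, at 53.8 CPM in ALK5i and 76.3 CPM in DMSO (log2 ratio -0.47). The 10 richest of these cells held 66.7% of the UMIs in ALK5i and 71.4% in DMSO. In epidermis-like cells it was at 848 CPM in ALK5i and 1402 CPM in DMSO at 6 dpf (log2 ratio -0.72, interval -0.80 to -0.65), and at 27.5 CPM in ALK5i and 39.6 CPM in DMSO at 3 dpf (log2 ratio -0.46, interval -0.88 to -0.04). At 6 dpf its lower level in ALK5i epidermis-like cells persisted without the 10 richest cells, at 359 CPM in ALK5i and 878 CPM in DMSO. Endothelial-like cells at 6 dpf had 1048 CPM in ALK5i and 850 CPM in DMSO, of which a single cell held 636 of 888 UMIs in ALK5i and 530 of 926 in DMSO. Macrophage-like cells at 6 dpf had only 51 cxcl8b.1 UMIs in ALK5i and 60 in DMSO. The paralog cxcl8b.3 was close to absent, with 1 ALK5i and 8 DMSO UMIs over all kept cells at 3 dpf, and 7 ALK5i and 32 DMSO UMIs at 6 dpf. Of the 6 dpf UMIs, 6 in ALK5i and 27 in DMSO were in endothelial-like cells. The 2 cxcl8b genes are near copies of each other, and counting may have split or dropped reads that fit both, so the split between them is uncertain.

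The gene cxcl14, an epithelial chemokine gene in mammals, was at 248 CPM in ALK5i and 151 CPM in DMSO in epidermis-like cells at 6 dpf (log2 ratio 0.70, interval 0.53 to 0.86). Without the 10 richest cells it was at 41.4 CPM in ALK5i and 45.9 CPM in DMSO. At 6 dpf 1 of 5 members with 20 UMIs in epidermis-like cells was past the fold higher (cxcl14) and 2 lower (cxcl8b.1 and cxcl19), where 14.2% of genes were higher and 5.04% lower. For cxcl19 only 15 ALK5i and 20 DMSO cells held a UMI, and 1 DMSO cell held 40 of the 112 DMSO UMIs. Without the 10 richest cells of each library cxcl19 was at 2.41 CPM in ALK5i and 3.79 CPM in DMSO, a log2 ratio of -0.25, inside the fold. At 3 dpf the epidermis-like cxcl14 level was 114 CPM in ALK5i and 120 CPM in DMSO, and 1 ALK5i cell held 143 of 240 UMIs. In clusters without a name at 6 dpf, cxcl14 was at 1153 CPM in ALK5i and 328 CPM in DMSO, where 1 ALK5i cell held 199 of 540 UMIs. Neural progenitor- and glia-like cells at 3 dpf had 78.3 CPM in ALK5i and 96.7 CPM in DMSO, and neuron-like cells 21.2 CPM in ALK5i and 28.4 CPM in DMSO. Macrophage-like cells stayed under 5 CPM of cxcl14 at both stages. At 3 dpf cxcl20 had 23 ALK5i and 24 DMSO UMIs in epidermis-like cells (10.9 CPM in ALK5i and 9.61 CPM in DMSO). Mesenchyme-like cells had 19 ALK5i and 31 DMSO UMIs of it (10.0 CPM in ALK5i and 9.81 CPM in DMSO). By cluster cxcl20 was highest in epidermis-like cells in ALK5i and in mesenchyme-like cells in DMSO. With a gate on each cell cxcl20 was highest in another class in both libraries. At 6 dpf it was also found in endothelial-like cells, at 82.6 CPM in ALK5i and 57.9 CPM in DMSO, and in liver-like cells, at 43.0 CPM in ALK5i and 27.4 CPM in DMSO. In liver-like cells 1 of 4 members was past the fold higher (cxcl20) and 1 lower (cxcl8a), where 19.4% of genes were higher and 5.4% lower. Without the 10 richest cells of each library both were inside the fold, with log2 ratios of 0.43 for cxcl20 and -0.22 for cxcl8a.

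Genes with the most similar distribution were ranked by Pearson's r of log2(CPM + 5) over 35 points, each a class in a library, among 17439 genes. The points of 1 library share its depth and processing, and r is given as a description. For cxcl11.1 the nearest were NPC2 (r = 0.97), c1qb (0.96) and c1qc (0.96), the C1q genes being complement genes strong in macrophages. For cxcl19 they were si:ch211-147m6.1 (0.92), si:ch211-194m7.3 (0.90) and CABZ01088134.1 (0.90). For cxcl8a they were ch25h, a cholesterol hydroxylase gene (0.83), nfkbiaa, an NF-κB inhibitor gene (0.82), and si:dkey-112a7.4 (0.82). For cxcl8b.1 they were fblim1 (0.84) and the keratin genes krt15 (0.84) and krt94 (0.82). For cxcl18b they were si:ch73-335l21.4 (0.95), cebpd (0.92), which encodes a transcription factor, and si:dkey-23i12.7 (0.91). For cxcl14 they were slit2 (0.88), bcam (0.86) and ptprub (0.84), and for cxcl20 grn1 (0.80), rbp2a (0.79) and hmox1a (0.77). The likeness was thus weakest for cxcl20 and highest for cxcl11.1. Of the genes named, c1qb, c1qc and grn1 were among the macrophage markers that named the classes, so their r is not independent of the class names.

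The distribution of members that neighbour each other was also compared. In the RefSeq annotation of assembly GRCz12tu, cxcl19, cxcl8b.3 and cxcl8b.1 follow each other on chromosome 7. Of these, cxcl19 was chiefly in macrophage-like cells, cxcl8b.1 chiefly in epidermis- and endothelial-like cells at 6 dpf, and cxcl8b.3 was near 0. On chromosome 5, cxcl11.1 and cxcl20 are adjacent, and both were highest in macrophage-like cells at 6 dpf. The genes cxcl8a and cxcl18b lie on chromosome 1 without being neighbours, and cxcl14 lies on chromosome 14.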

How the data were processed

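The authors deposited UMI counts per gene and cell barcode as 10x matrices from 3′ v4 libraries, per the labels' protocols. The file headers name Cell Ranger version 9.0.0, the submitters' processing notes version 9.0.1 and genome build GRCz11. The annotation release and the cell calling are not given in the sources used here. Barcodes with at least 500 UMIs, 300 genes and at most 10% mitochondrial UMIs were kept. Scrublet calls were removed (2020 in ALK5i and 3225 in DMSO at 3 dpf, 5 in ALK5i and 4 in DMSO at 6 dpf). Cells of a stage were clustered with scanpy 1.11.5 (2000 variable genes, 30 components, 15 neighbours, Leiden resolution 1), leaving out mitochondrial genes, the members and the listed genes (188 features for the last 2), and blood-like clusters were clustered again. A class name needed at least 3 markers. The further conditions for mixed or unnamed clusters were set after clusters had been seen. Sums per class were divided by the class total (CPM), and ratios used a pseudocount of 5 CPM and at least 20 UMIs over both libraries. Poisson and binomial intervals are exact. The computation was tested on simulated counts.

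The members and gene lists were chosen with earlier results of these data known. Genes named were every member, CXC ligand and receptor genes with at least 20 UMIs, the 3 highest and 3 lowest ratios of other lists in macrophage-like cells at 3 dpf (a selection of which is printed), and the 3 most similar genes for members with at least 200 UMIs. With 1 library per group, no count model was run. Alternatives changed the filters, pseudocount, clustering, gating, doublets, scaling, thinning and cells used. The count over the TGF-β response list is not reported here.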

Additional observations from a re-analysis of the deposited data

Results flagged for a closer look

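Some members had ALK5i over DMSO ratios on opposite sides of 0 in different settings, with both counting intervals off 0. With 1 library per group none of these differences was tested. Between stages in macrophage-like cells, the 6 dpf minus 3 dpf difference in log2 ratio was -0.91 for cxcl11.1, -0.89 for cxcl20, -2.23 for cxcl18b and 0.79 for cxcl14. The cxcl14 value rests on 16 ALK5i and 8 DMSO UMIs at 6 dpf and on 6 ALK5i and 25 DMSO UMIs at 3 dpf. The cxcl18b ratio at 3 dpf was -0.08 without the 10 richest cells.

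Between classes of 1 stage, differences of at least 1 on the log2 scale with at least 100 UMIs in each class were listed. For cxcl8a at 3 dpf, macrophage-like minus mesenchyme-like was 1.94 and macrophage-like minus neural progenitor- and glia-like was 2.11. The mesenchyme-like ratio in this was -1.43, and -1.09 without the 10 richest cells of each library. In the neural progenitor- and glia-like class at 3 dpf, 1 DMSO cell held 85 of the 99 cxcl8a UMIs. At 6 dpf, macrophage-like minus liver-like was 1.07 and macrophage-like minus neural progenitor- and glia-like was 1.07. In the liver-like class 1 DMSO cell held 695 of 1855 cxcl8a UMIs, and without the 10 richest cells of each library the ratio was -0.22. In the neural progenitor- and glia-like class at 6 dpf, the 10 richest cells held 100% of the cxcl8a UMIs in ALK5i and 99.4% in DMSO. For cxcl18b at 6 dpf, macrophage-like cells differed from endothelial-like cells by -2.04, from liver-like cells by -2.23, from mesenchyme-like cells by -3.25 and from neural progenitor- and glia-like cells by -2.21, and 1 DMSO macrophage-like cell enters each of these with 236 UMIs. Without the 10 richest cells of each library the cxcl18b ratio was -0.33 in endothelial-, -0.17 in liver- and -0.14 in mesenchyme-like cells. That is the same side of 0 as in macrophage-like cells (-0.79 without theirs). In neural progenitor- and glia-like cells it stayed positive, at 0.60. For cxcl20 at 6 dpf the difference was -1.02 from endothelial-like and -1.10 from liver-like cells. Only 13 ALK5i and 10 DMSO endothelial-like cells held a cxcl20 UMI. The liver-like cxcl20 ratio was 0.43 without the 10 richest cells of each library.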

How the results depend on the processing

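No paired analysis was possible because each group was 1 library. In macrophage-like cells at 3 dpf, 2 members were past the fold. The count was 5 with a pseudocount of 1 CPM. It was 1 (cxcl19) with Leiden resolution 0.5 or 2, with a gate on each cell, among the lower-stress cells, or with unnamed and mixed macrophage clusters added. It was 0 with clusters weighted alike. Adding the unnamed and mixed clusters and weighting clusters alike were chosen after seeing the data. The ratio at 3 dpf kept its sign in all 15 alternatives for cxcl8a (0.45 to 0.55) and for cxcl19 (-0.56 to -0.47). That of cxcl18b at 3 dpf ran from -0.30 to 0.38. In neutrophil-like cells the count was 1. It was 2 with the gate, with doublet calls kept or with no UMI minimum, and 0 in lower-stress cells or without the 10 richest cells. In macrophage-like cells at 6 dpf the count was 4, and 3 to 5 under the alternatives. There the cxcl18b ratio ran from -3.85 to -0.47, that of cxcl11.1 from -1.06 to -0.51, and that of cxcl19 from -0.58 to 0.08. For cxcl20 it ran from -0.72 to -0.42, past the fold in 11 of 15 alternatives. The cause of these shifts was not tested. The neutrophil-like comparison at 6 dpf was not made, with under 50 cells per library. The number of members highest in macrophage-like cells in both libraries was the same by gate and by cluster, 2 at 3 dpf and 4 at 6 dpf. In ALK5i at 3 dpf, cxcl8a was highest in macrophage-like cells by cluster and in epidermis-like cells by gate. In DMSO at 3 dpf, cxcl8a was highest in epidermis-like cells both by cluster and by gate.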

Other observations

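CXC ligand genes outside the 8 members were also found. The Cxcr4 ligand gene cxcl12a was at 646 CPM in ALK5i and 695 CPM in DMSO in mesenchyme-like cells at 3 dpf, and at 640 CPM in ALK5i and 757 CPM in DMSO in neural progenitor- and glia-like cells. In epidermis-like cells at 3 dpf it was at 58.3 CPM in ALK5i and 10.4 CPM in DMSO (log2 ratio 2.04), from 123 ALK5i and 26 DMSO UMIs. In endothelial-like cells at 6 dpf cxcl12a was at 702 CPM in ALK5i and 444 CPM in DMSO. There the scavenger receptor gene ackr3b, whose product clears Cxcl12, was at 129 CPM in ALK5i and 60.6 CPM in DMSO. This class had 73 ALK5i and 115 DMSO cells, and 12.5% of all genes tested in it were past the fold higher and 19.2% lower. How far the cxcl12a and ackr3b levels rest on few cells was not examined.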
